A study of Mus musculus with 6 samples.

Results

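ABC transporters are membrane proteins that use ATP to move lipids, drugs, conjugated metabolites, peptides, metals and nucleotides across membranes. Their genes were examined in bulk RNA sequencing of primary mouse vascular smooth muscle cells. Members were the rows of the count table whose symbol is Abc, a subfamily letter from a to g, a number and at most 1 further letter. Abca1, Abca7 and Abcg1 were left out by that rule. Of 47 such genes, 39 had at least 1 count over the libraries and 8 had none, in a table with 23349 genes with any count. Of the 39, 27 passed the filter on low counts and were tested, and 12 did not. The 6 libraries fall into 2 groups. The 3 I-KO libraries are of Ncor1-/- cells from mice with a smooth muscle knockout of Ncor1, the nuclear receptor corepressor, and the 3 I-WT libraries are of wild type cells from littermate controls. All are from strain C57BL/6. The design text names treatment with 4-OHT to induce the Ncor1 deletion and does not say plainly whether the control cells received it too. If they did not, the drug and the genotype cannot be told apart. Which promoter drives the recombinase is not given in the sources used here. By the design text each group has 3 mice, yet its replicates are also called technical. The p-values below therefore rest on library-to-library spread alone, and that spread may be technical.

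In the A, B, C, D and G subfamilies the proteins span membranes. Subfamily A moves mainly lipids. Subfamily B holds the P-glycoproteins and the half-transporters of mitochondria and lysosomes. Subfamily C holds the multidrug resistance proteins and the sulphonylurea receptors, which are channel subunits rather than pumps. Subfamily D works in peroxisomes and lysosomes, and G exports sterols, urate and drugs. E and F proteins have the ATP-binding cassettes without membrane domains and act on ribosomes. Vascular smooth muscle is known for the ATP-sensitive potassium channel, in which the receptor SUR2, encoded by Abcc9, surrounds the pore subunit encoded by Kcnj8. It is also known for Abcc4 and Abcc5, which can export cyclic nucleotides.

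Total counts were 7125538 to 9579490 per I-KO library and 7231968 to 9005690 per I-WT library. Ncor1 stood at 93.7 to 99.3 CPM (TMM-normalised counts scaled to a common library size) in I-KO and at 213 to 230 CPM in I-WT libraries (log2 fold change -1.21, SE 0.0445). Markers of the labelled cell type were present in all libraries, with a summed level of 4107 to 4332 CPM in I-KO and 12109 to 12350 CPM in I-WT for 10 smooth muscle genes, of which 9 were lower. Of 15 endothelial markers 14 were higher and 1 lower, and their sum was 7070 to 7241 CPM in I-KO against 2034 to 2119 CPM in I-WT libraries. Of 16 macrophage markers 14 were higher, with a sum of 599 to 653 CPM in I-KO against 51.1 to 76.9 CPM in I-WT libraries, and Mrc1 was at 0 in I-WT replicate 2. The 5 tested mural and pericyte markers were all lower, with a sum over the 7 listed genes of 511 to 569 CPM in I-KO against 1570 to 1656 CPM in I-WT. Fibroblast markers summed to 1095 to 1168 CPM in I-KO and 305 to 329 CPM in I-WT, with 3 of 6 higher and 3 lower. Lymphocyte markers summed to 9.74 to 10.6 CPM in I-KO and 1.93 to 3.07 CPM in I-WT, and Cd3e, Cd8a and Ms4a1 were at 0 in all 6 libraries. Higher and lower here mean called at an edgeR adjusted p under 0.05. By that rule 26.4% of all tested genes were higher and 26.2% lower. In bulk RNA, fewer cells of a type and less RNA per cell cannot be told apart. The part of these marker differences in the results was not tested.

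Of the 27 tested members, 10 rose, 6 fell and 11 did not pass, by edgeR's quasi-likelihood test at a Benjamini-Hochberg adjusted p under 0.05 over 13323 genes. Called members made up 59.3%, against 52.6% of all tested genes, so the share called was near the background. Those that rose were 37.0% of the members, where 26.4% of all genes rose, and those that fell were 22.2%, where 26.2% of all genes fell. At least 2-fold changes were called in 6 members (22.2%), against 13.0% of all genes. These were 4 members that rose, where 6.90% of all genes rose that far, and 2 that fell, where 6.13% of all genes did. Abcg3, Abcc9 and Abcg4 among them passed the filter on low counts only through the group where they are high. Members low in both groups, such as Abcb1a, were not tested. The filter thus favours large changes among low genes, and the p-values of such genes share that limit. Abca3 and Abcb1b lay at the 2-fold limit: without I-WT replicate 1 their log2 fold changes were 0.984 and 0.978, and without I-KO replicate 1 that of Abcb1b was 0.997, so that 4 members were past it in the first case. In 19 of the 27 members (70.4%) no I-KO value lay within the I-WT range or the reverse, against 57.8% of all genes. The median log2 fold change, I-KO over I-WT, was 0.10 over the members and 0.00 over all tested genes. Scaling by library totals alone moved both upward, to 0.23 and 0.13, and then 15 members rose and 5 fell. With that scaling 68.8% of all calls were higher, against 50.1% with TMM. Without I-WT replicate 3 the median of the members was 0.22, more than 1.5 times the value from all libraries.

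**Figure D1:**
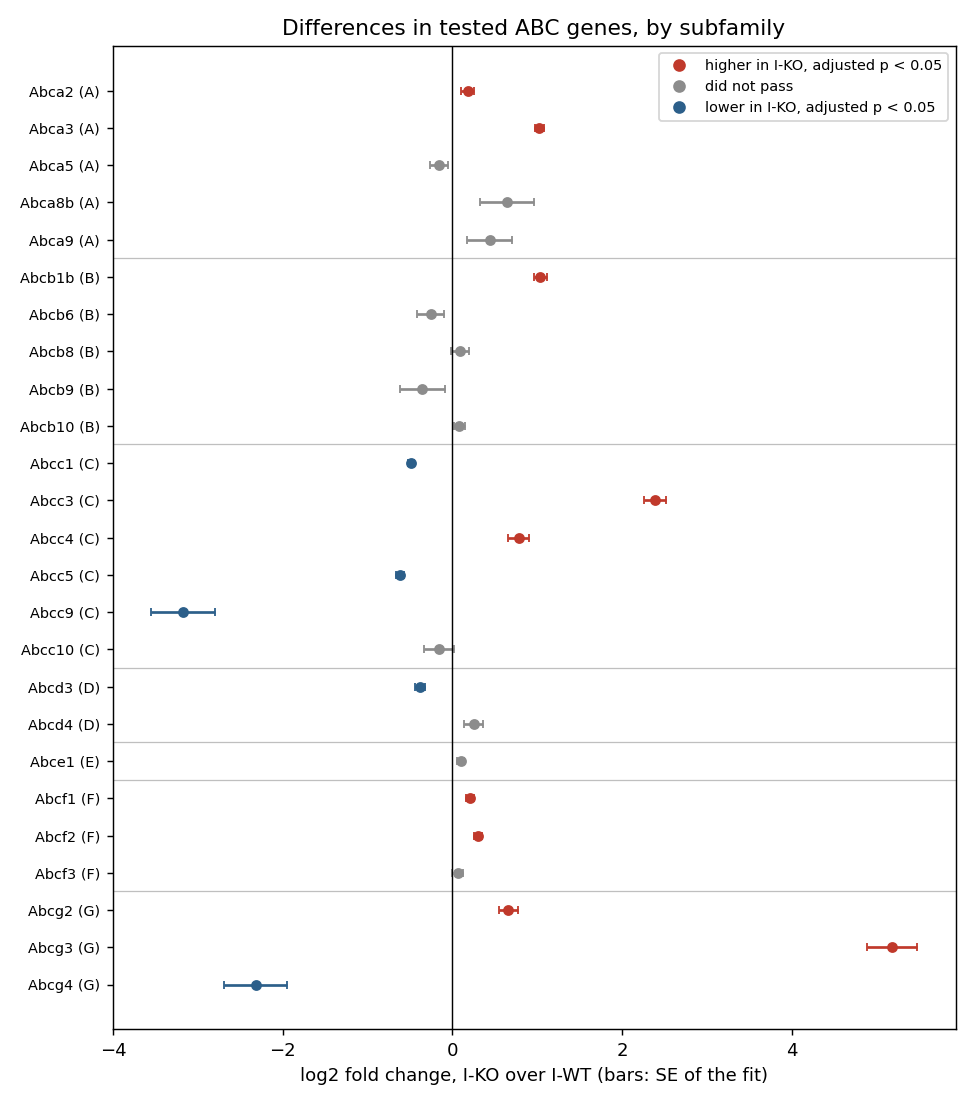
Log2 fold changes of 25 of the 27 tested ABC genes, I-KO over I-WT, grouped by subfamily, with bars for the SE of the fit. Abcg3 (5.18) and Abcc3 (2.39) stand farthest to the right and Abcc9 (-3.18) and Abcg4 (-2.32) farthest to the left, while most of the others lie within 1 unit of 0.

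Levels of different genes can be set side by side only per length, as FPKM (counts scaled by library total and gene length). The FPKM values rest on library totals, so between the groups they run higher in I-KO than the TMM scale. On this scale Abce1 and Abcf2, which belong to the subfamilies without membrane domains, and the exporter Abcc1 were the 3 most abundant members in both groups. Abce1 averaged 52.3 ± 2.72 FPKM in I-KO and 44.7 ± 2.54 FPKM in I-WT (SD, n = 3 each). Abcf2 averaged 49.3 ± 2.21 FPKM in I-KO and 36.8 ± 0.600 FPKM in I-WT. Abcc1 averaged 32.4 ± 1.22 FPKM in I-KO and 41.3 ± 1.5 FPKM in I-WT. The 4 genes of subfamilies E and F together gave 135 ± 5.65 of the family's 308 ± 3.19 FPKM in I-KO, and 110 ± 3.20 of 261 ± 6.72 FPKM in I-WT. Subfamily A summed to 27.4 ± 0.496 FPKM in I-KO against 15.1 ± 0.358 FPKM in I-WT, and subfamily G to 12.9 ± 0.0107 FPKM against 6.00 ± 0.594 FPKM. Most of the difference in subfamily A came from Abca3, at 20.4 ± 0.479 FPKM in I-KO and 9.16 ± 0.381 FPKM in I-WT. Subfamily C gave 55.6 ± 1.55 FPKM in I-KO and 63.7 ± 2.33 FPKM in I-WT. Subfamily D gave 32.2 ± 0.991 FPKM in I-KO and 34.4 ± 1.01 FPKM in I-WT. Subfamily B gave 44.4 ± 1.72 FPKM in I-KO and 32.7 ± 1.07 FPKM in I-WT.

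**Figure D2:**
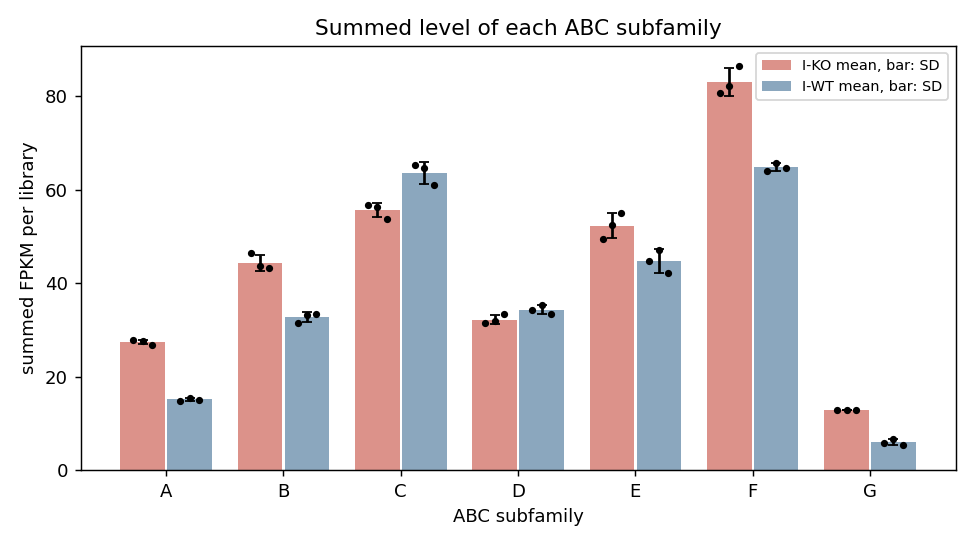
Summed FPKM of each ABC subfamily, as means of the 3 I-KO and 3 I-WT libraries (bars, starting at 0) with SD and with each library as a point. Subfamilies A (27.4 in I-KO, 15.1 in I-WT) and G (12.9 in I-KO, 6.00 in I-WT) are higher in I-KO, and C is lower (55.6 in I-KO, 63.7 in I-WT). B (44.4 in I-KO, 32.7 in I-WT), E (52.3 and 44.7) and F (83.1 and 64.8) are also higher. D is lower (32.2 in I-KO, 34.4 in I-WT). The FPKM scale itself runs higher in I-KO than the TMM scale.

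**Figure D3:**
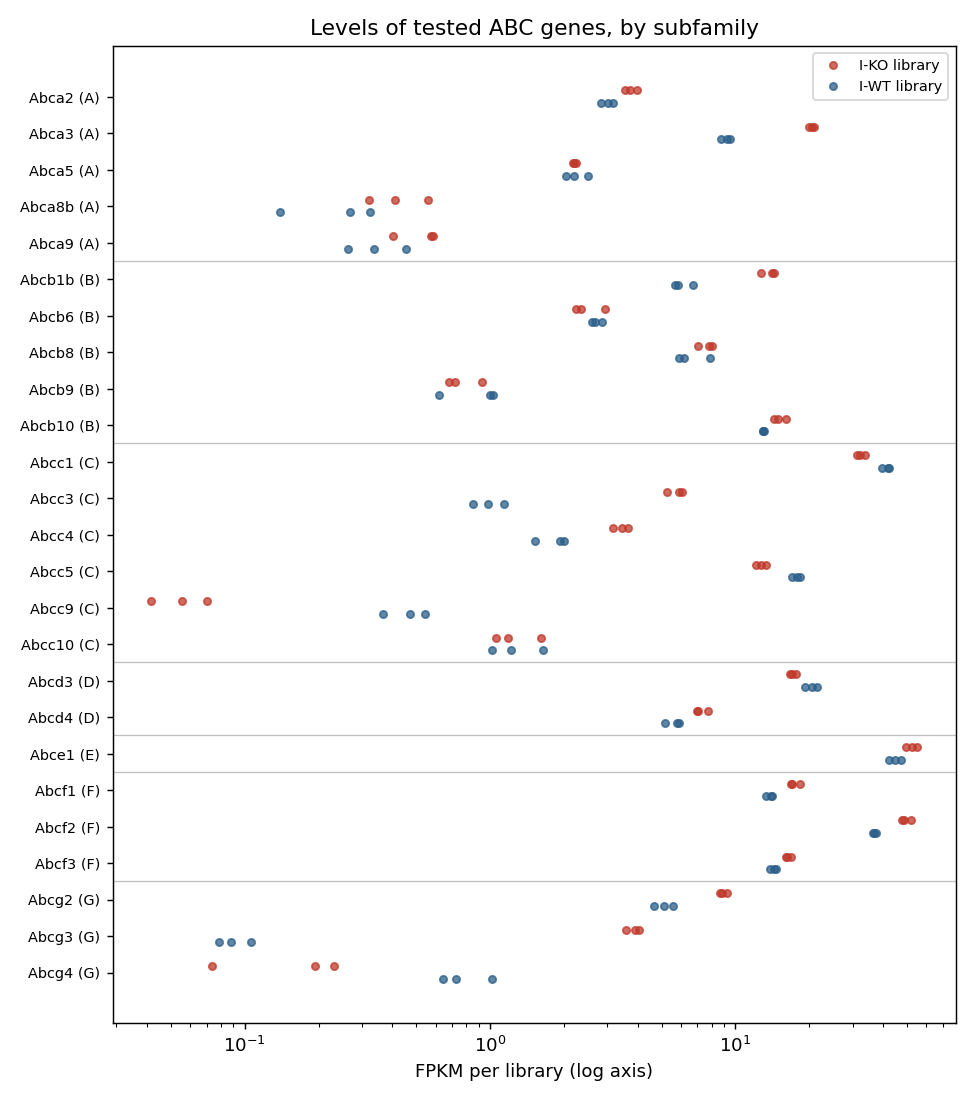
FPKM of 25 of the 27 tested ABC genes in each library on a log axis, I-KO points above I-WT points in each row. Abce1, Abcf2 and Abcc1 lie above 30 FPKM in every library, and Abcg3 shows the widest gap between the groups.

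The order of levels within the family changed most for a few genes. Abcg3 was number 17 of 39 by mean FPKM in I-KO and number 28 in I-WT. Abcc3 was number 15 in I-KO and 21 in I-WT, and Abca3 number 4 in I-KO and 9 in I-WT. In the other direction, Abcc5 was number 10 in I-KO and 5 in I-WT, and Abcc9 number 29 in I-KO and 24 in I-WT. Abce1 was first in both groups.

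Upstream sequence is shown for the 4 of the 6 members with at least a 2-fold change that the RefSeq promoter table holds (build GRCm38.p6). The sequences are shown so that the start regions of genes that changed by that much can be compared. Each is the 250 bases before the annotated start, 5′ to 3′ on the strand of the gene. Capitals mark matches on either strand to the GC box (GGGCGG) or the CCAAT box. Abcg3 is at chr5:104982718-104982967 on the minus strand, and Abcb1b at chr5:8797897-8798146 on the plus strand. Abca3 is at chr17:24351773-24352022 on the plus strand, and Abcc9 at chr6:142702275-142702524 on the minus strand.
Abcg3: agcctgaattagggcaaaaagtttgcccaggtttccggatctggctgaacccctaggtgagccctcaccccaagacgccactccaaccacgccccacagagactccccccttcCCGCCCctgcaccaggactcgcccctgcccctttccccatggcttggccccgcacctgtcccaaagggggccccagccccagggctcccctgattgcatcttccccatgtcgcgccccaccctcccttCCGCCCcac
Abcb1b: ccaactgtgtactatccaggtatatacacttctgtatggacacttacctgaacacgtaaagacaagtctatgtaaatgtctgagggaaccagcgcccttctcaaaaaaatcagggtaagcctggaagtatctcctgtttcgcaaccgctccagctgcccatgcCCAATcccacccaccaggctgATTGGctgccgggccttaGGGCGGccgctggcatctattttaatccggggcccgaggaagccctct
Abca3: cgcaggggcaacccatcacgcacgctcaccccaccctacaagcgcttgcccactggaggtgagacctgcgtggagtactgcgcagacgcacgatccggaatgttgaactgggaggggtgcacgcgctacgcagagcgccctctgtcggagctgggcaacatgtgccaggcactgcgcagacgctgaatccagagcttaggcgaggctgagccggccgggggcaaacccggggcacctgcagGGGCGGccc
Abcc9: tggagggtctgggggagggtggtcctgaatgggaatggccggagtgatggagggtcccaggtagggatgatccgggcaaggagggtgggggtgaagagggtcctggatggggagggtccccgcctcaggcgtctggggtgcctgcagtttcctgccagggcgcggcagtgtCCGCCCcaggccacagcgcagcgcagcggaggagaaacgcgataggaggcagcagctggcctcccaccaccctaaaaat

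All 4 windows held a GC box, 3 of them in genes that rose and 1 in a gene that fell. GC content was 66.4% for Abcg3, 52.8% for Abcb1b, 67.6% for Abca3 and 66.8% for Abcc9. Among 32851 promoter windows of the table, 32.7% held the GC box, 33.8% the CCAAT box, 14.0% the nuclear receptor half-site AGGTCA and 12.4% TATAAA. Of 34 windows of the 28 members in the table, 18 held the GC box, 10 the CCAAT box, 6 the half-site and 1 TATAAA. Neither AGGTCA nor TATAAA matched in the 4 windows printed, and matches of different motifs did not overlap there. A match is a run of letters and not a measured binding site.

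Subfamily A had 10 members with counts, of which 5 were tested. Abca2 and Abca3 rose, and the other 3 did not pass, where 26.4% of all tested genes rose. The median log2 fold change, 0.44, was that of Abca9, a low gene that did not pass. Abca3 imports phospholipids into lamellar bodies of lung surfactant cells and was the most abundant member of the subfamily. It stood at 129, 131 and 124 CPM in I-KO replicates 1, 2 and 3, and at 60.2, 65.0 and 64.3 CPM in I-WT replicates 1, 2 and 3. Every I-KO library was above every I-WT library. The means were 128 ± 3.54 CPM in I-KO and 63.2 ± 2.60 CPM in I-WT (SD, n = 3 each), a log2 fold change of 1.02 (SE 0.0526, edgeR adjusted p = 4.13e-26). Per length, Abca3 averaged 20.4 ± 0.479 FPKM in I-KO and 9.16 ± 0.381 FPKM in I-WT. Its neighbour in gene order, Abca17, had 1 count over the 6 libraries. Abca2, a lysosomal lipid transporter known from myelin-forming cells, averaged 36.0 ± 2.01 CPM in I-KO and 31.8 ± 2.03 CPM in I-WT (log2 fold change 0.18, SE 0.0789, edgeR adjusted p = 0.0491). This call sat at the threshold. It was lost when 1 of 4 libraries was dropped (without I-KO replicate 1, adjusted p = 0.190; without I-KO replicate 3, 0.0672; without I-WT replicate 1, 0.0927; without I-WT replicate 2, 0.208) and in the DESeq2 test (0.236).

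Abca5, Abca6, Abca8a, Abca8b and Abca9 lie next to each other on chromosome 11. Abca5, a lysosomal member, averaged 17.4 ± 0.294 CPM in I-KO and 19.5 ± 1.94 CPM in I-WT (log2 fold change -0.16, SE 0.105, edgeR adjusted p = 0.194). Its I-KO libraries, at 17.2 to 17.8 CPM, were all below its I-WT libraries, at 17.8 to 21.6 CPM, by a small margin. Abca8b and Abca9 were low and did not pass, with 63 counts summed over I-KO and 37 over I-WT for Abca8b, and 80 and 54 for Abca9 in the same order. Abca8b passed without I-KO replicate 3 (adjusted p = 0.0381) and without I-WT replicate 1 (0.0423). Abca6 had 11 counts over the I-KO and 17 over the I-WT libraries, and Abca8a 6 and 4. The genes of this cluster are related in sequence. How reads that match several of them were assigned is not given in the sources used here. Among the other untested members, Abca13 had 4 counts over I-KO and 3 over I-WT, and Abca14 had 2 counts, both in I-KO.

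In subfamily B, 6 of 8 members were tested, with a median log2 fold change of 0.08. Abcb1b is one of the pair of mouse P-glycoprotein genes, which encode broad drug efflux pumps of the plasma membrane. It stood at 59.8, 58.6 and 52.5 CPM in I-KO replicates 1, 2 and 3, and at 25.8, 30.4 and 26.9 CPM in I-WT replicates 1, 2 and 3. The groups were far from overlapping. The means were 56.9 ± 3.91 CPM in I-KO and 27.7 ± 2.36 CPM in I-WT, a log2 fold change of 1.03 (SE 0.0759, edgeR adjusted p = 7.8e-19). The other gene of the pair, Abcb1a, is the form of brain capillary endothelium and lies next to Abcb1b on chromosome 5. It had 5, 10 and 6 counts in I-KO replicates 1, 2 and 3, and 4, 4 and 3 counts in I-WT replicates 1, 2 and 3. The ratio of summed counts, scaled to library size, was 1.75 with an exact 95% interval of 0.806 to 4.02, for counting error only. Its libraries did not overlap, at 0.596 to 1.35 CPM in I-KO and 0.439 to 0.515 CPM in I-WT, but Abcb1a was too low to enter the fit, and its summed counts do not separate the groups at this depth. Abcb4, the phosphatidylcholine transporter of bile canaliculi on the other side of Abcb1b, had 1 count. Abcb1a and Abcb1b share much sequence, and reads that match both could not be assigned here.

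Both neighbours of Abcb1b were thus near the lower limit of detection, while Abcb1b was well measured. Abcb1b is also made by endothelial cells and macrophages, whose marker sums were 7070 to 7241 and 599 to 653 CPM in I-KO against 2034 to 2119 and 51.1 to 76.9 CPM in I-WT libraries. Their part in its rise was not tested.

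The mitochondrial half-transporters Abcb6, Abcb8 and Abcb10 did not pass the test. Abcb10, which works with the mitochondrial iron importer in haem synthesis, was the most abundant of the subfamily by FPKM. It stood at 66.4, 59.1 and 60.8 CPM in I-KO replicates 1, 2 and 3, and at 59.1, 58.2 and 58.8 CPM in I-WT replicates 1, 2 and 3. The groups overlapped, and the log2 fold change of 0.08 (SE 0.0617) did not pass (edgeR adjusted p = 0.283). With library totals alone it was 0.21 and passed (adjusted p = 0.00223). Abcb8 averaged 21.6 ± 1.39 CPM in I-KO and 20.6 ± 3.43 CPM in I-WT. Abcb6, a porphyrin transporter, averaged 7.05 ± 1.09 CPM in I-KO and 8.37 ± 0.360 CPM in I-WT. Neither passed with TMM scaling or under any of the 16 alternatives. Nor did Abcb9, the lysosomal peptide transporter, with 62 counts over I-KO and 73 over I-WT.

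Genes of mitochondrial iron-sulphur and haem synthesis went both ways. Of 5 such genes, 1 rose, 2 fell and 2 did not pass, where 26.4% of all tested genes rose and 26.2% fell. Slc25a37, the mitochondrial iron importer mitoferrin, rose by 0.25 on the log2 scale (66.9 ± 5.41 CPM in I-KO, 56.4 ± 2.26 CPM in I-WT). Fech, which inserts iron into haem, fell by 0.49 (46.9 ± 1.32 CPM in I-KO, 65.9 ± 2.29 CPM in I-WT). The iron-sulphur scaffold Iscu fell by 0.32 (40.8 ± 1.64 CPM in I-KO, 51.0 ± 3.96 CPM in I-WT). Glrx5 and the cysteine desulphurase Nfs1 had log2 fold changes of 0.16 and 0.13.

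Subfamily C held changes in both directions. Of 10 members with counts 6 were tested: Abcc3 and Abcc4 rose, Abcc1, Abcc5 and Abcc9 fell, and Abcc10 did not pass (median log2 fold change -0.33). Calls in both directions were also common among all tested genes, of which 26.4% rose and 26.2% fell. Abcc1, the multidrug resistance protein that exports glutathione conjugates and leukotriene C4, was by far the most abundant per length. It stood at 188, 197 and 182 CPM in I-KO replicates 1, 2 and 3, and at 269, 270 and 255 CPM in I-WT replicates 1, 2 and 3. All I-KO libraries were below all I-WT libraries. The log2 fold change was -0.49 (SE 0.0395, edgeR adjusted p = 5.31e-17). Abcc5, an exporter of organic anions and cyclic nucleotides, averaged 101 ± 5.11 CPM in I-KO and 154 ± 5.19 CPM in I-WT, a log2 fold change of -0.62 (SE 0.0471, edgeR adjusted p = 2.89e-18).

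The exporters of the subfamily that rose were Abcc3 and Abcc4. Abcc3 exports glucuronides and bile salts across basolateral membranes of liver and gut. It stood at 28.5, 25.4 and 29.0 CPM in I-KO replicates 1, 2 and 3, and at 6.05, 5.15 and 4.53 CPM in I-WT replicates 1, 2 and 3. The lowest I-KO library was more than 4 times the highest I-WT library. The means were 27.6 ± 1.92 CPM in I-KO and 5.24 ± 0.765 CPM in I-WT, a 5.23-fold higher level by the fit (log2 fold change 2.39, SE 0.130, edgeR adjusted p = 5.61e-25). Abcc4, which exports cyclic nucleotides and prostaglandins, ranged over 17.3 to 20.04 CPM in I-KO and 9.20 to 11.97 CPM in I-WT libraries (log2 fold change 0.78, SE 0.122, edgeR adjusted p = 1.42e-07). Both cyclic nucleotide exporters thus changed, Abcc4 upward and Abcc5 downward. By FPKM, Abcc4 stood at 3.42 ± 0.238 in I-KO and 1.82 ± 0.254 in I-WT, below Abcc5 at 12.7 ± 0.590 FPKM in I-KO and 17.7 ± 0.678 FPKM in I-WT. Abcc10, a broad efflux pump, averaged 6.70 ± 1.53 CPM in I-KO and 7.41 ± 1.85 CPM in I-WT (log2 fold change -0.16, SE 0.178, edgeR adjusted p = 0.464), and without I-WT replicate 1 its log2 fold change was 0.067.

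Abcc9 encodes the sulphonylurea receptor SUR2 of the vascular ATP-sensitive potassium channel. It had 4, 3 and 3 counts in I-KO replicates 1, 2 and 3, and 37, 29 and 20 counts in I-WT replicates 1, 2 and 3. In CPM these are 0.511, 0.404 and 0.298 in I-KO, and 4.31, 3.73 and 2.92 in I-WT, with no overlap. By the fit the level was 9.05-fold lower in I-KO (log2 fold change -3.18, SE 0.379, edgeR adjusted p = 7.89e-11). On the log2(FPKM + 1) scale, which understates the change of low genes, the difference was -0.47. The ratio of summed counts, I-WT over I-KO and scaled to library size, was 9.39 with an exact 95% interval of 4.87 to 20.3, which covers counting error only. Kcnj8, the pore subunit that SUR2 surrounds, is the next gene to Abcc9 on chromosome 6. Kcnj8 stood at 0.511, 0.942 and 0.298 CPM in I-KO replicates 1, 2 and 3, and at 3.84, 3.09 and 3.22 CPM in I-WT replicates 1, 2 and 3. It fell as well (log2 fold change -2.59, SE 0.363, edgeR adjusted p = 9.49e-09), with 14 counts over the I-KO and 79 over the I-WT libraries, and its difference on the log2(FPKM + 1) scale was -0.87. Abcc9 and Kcnj8 both passed the filter on low counts only through the I-WT libraries. The other receptor, Abcc8, had 1 count in all, and the other pore, Kcnj11, had none. Abcc9 and Kcnj8 are also pericyte markers, and the 5 tested genes of the mural and pericyte list, Kcnj8 included, were all lower. The other genes of that list were too low to test and did not fall. Ndufa4l2 had 12 counts over I-KO and 5 over I-WT, and Higd1b had 1 in each group. Of the 10 smooth muscle markers 9 were lower as well, with a sum of 4107 to 4332 CPM in I-KO and 12109 to 12350 CPM in I-WT. The part of pericytes or of smooth muscle cells in the fall of Abcc9 was not tested.

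**Figure D4:**
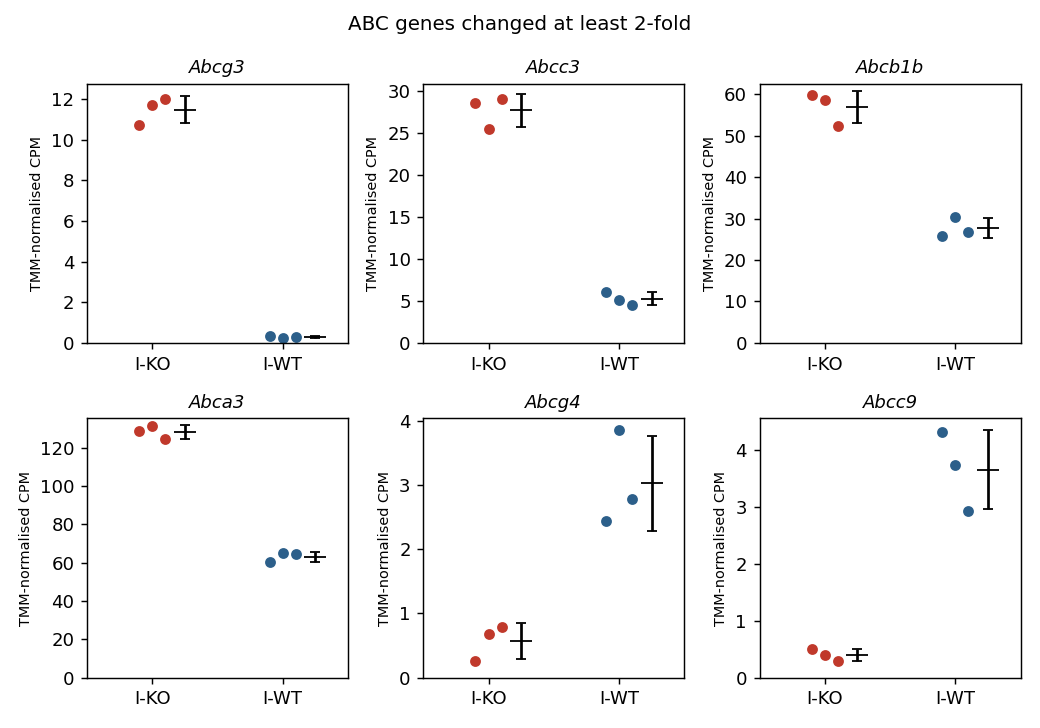
TMM-normalised CPM of the 6 ABC genes changed at least 2-fold, each I-KO and I-WT library as a point with the mean and SD in black, on axes that start at 0. In Abcg3, Abcc3, Abcb1b and Abca3 all I-KO points lie above all I-WT points, and in Abcg4 and Abcc9 all lie below.

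The remaining members of subfamily C were at the limit of detection. Abcc2, the canalicular exporter of liver, had 2 counts in all, 1 in each group. Abcc6, known for its loss in the calcifying disorder pseudoxanthoma elasticum, had 1 count, and Abcc12 had 4 counts over I-KO and 1 over I-WT.

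In subfamily D, Abcd3 fell and Abcd4 did not pass, where 26.2% of all tested genes fell. Abcd3 is the major peroxisomal membrane protein PMP70, which imports branched-chain acyl groups and bile acid precursors. It stood at 55.7, 56.7 and 58.2 CPM in I-KO replicates 1, 2 and 3, and at 74.9, 77.7 and 70.5 CPM in I-WT replicates 1, 2 and 3. The groups did not overlap (log2 fold change -0.39, SE 0.0596, edgeR adjusted p = 9.49e-08). Abcd2, another peroxisomal member, had 7 counts over I-KO and 5 over I-WT.

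Abcd4 acts in lysosomes, where it releases cobalamin. Abcd4 averaged 17.6 ± 0.893 CPM in I-KO and 14.9 ± 1.12 CPM in I-WT without overlap, and just missed the threshold (log2 fold change 0.25, SE 0.112, edgeR adjusted p = 0.0535). It passed without I-WT replicate 3 (adjusted p = 0.0448) and with library totals alone (0.00242). Among factors that insert ABCD proteins into the peroxisome, Pex19 fell by 0.24 on the log2 scale (64.7 ± 0.779 CPM in I-KO, 76.6 ± 1.41 CPM in I-WT). Scaled by library totals alone, Pex19 no longer passed (-0.11, adjusted p = 0.0990). Pex3 (0.00) and Pex16 (-0.17) did not pass.

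The ribosome-acting members moved little. In subfamily F, Abcf1 and Abcf2 rose and Abcf3 did not pass (median log2 fold change 0.21), where 26.4% of all tested genes rose. Abcf2 stood at 127, 129 and 137 CPM in I-KO replicates 1, 2 and 3, and at 105, 108 and 108 CPM in I-WT replicates 1, 2 and 3. The I-KO libraries were all higher, by a modest margin (log2 fold change 0.30, SE 0.0471, edgeR adjusted p = 2.25e-07). Abcf1, which binds the initiation factor eIF2, averaged 105 ± 4.40 CPM in I-KO and 91.1 ± 3.02 CPM in I-WT (log2 fold change 0.21, SE 0.0511, edgeR adjusted p = 4.19e-04). Abcf3, the counterpart of yeast Gcn20, averaged 51.5 ± 1.23 CPM in I-KO and 49.3 ± 1.02 CPM in I-WT. Its log2 fold change was 0.06 (SE 0.0652), and with library totals alone it was 0.19 and passed (adjusted p = 0.00908).

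Abce1 splits ribosomes into subunits after termination. It stood at 181, 192 and 200 CPM in I-KO replicates 1, 2 and 3, and at 179, 188 and 170 CPM in I-WT replicates 1, 2 and 3. The groups overlapped, and the log2 fold change of 0.10 (SE 0.0426) just missed the threshold (edgeR adjusted p = 0.0542). It passed with DESeq2 size factors (0.0474), with library totals alone (0.23, adjusted p = 4.71e-06), without I-KO replicate 1 (0.0154) and without I-WT replicate 2 (0.0147). Of its partners, the release factor Etf1 rose by 0.32 (237 ± 5.20 CPM in I-KO, 190 ± 10.3 CPM in I-WT), while the rescue factors Pelo (0.03) and Hbs1l (0.32, SE 0.161) did not pass. Of 4 tested translation partners of Abcf1 and Abcf3, Eif2s1 rose by 0.26, and Eif2s2 (0.02), Gcn1l1 (-0.01) and Eif2ak4 (-0.02) did not pass. Among all tested genes, 26.4% rose.

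All 3 tested members of subfamily G changed, 2 upward and 1 downward, where 52.6% of all tested genes were called. Abcg3 is a rodent half-transporter whose substrate is not established. It had 84, 87 and 121 counts in I-KO replicates 1, 2 and 3, and 3, 2 and 2 counts in I-WT replicates 1, 2 and 3. In CPM these are 10.7, 11.7 and 12.02 in I-KO, and 0.349, 0.257 and 0.292 in I-WT. The groups lay far apart, and the I-WT counts were at the limit that a count of 0 allows (3 counts per library). Scaled to library size, the ratio of 292 to 7 summed counts was 38.2 with an exact 95% interval of 18.3 to 95.9 for counting error. The fitted log2 fold change was 5.18 (SE 0.295, edgeR adjusted p = 5.62e-24), and on the log2(FPKM + 1) scale, which understates low genes, 2.15. Macrophage markers, which summed to 599 to 653 CPM in I-KO against 51.1 to 76.9 CPM in I-WT, moved the same way. So did the sums of endothelial (7070 to 7241 against 2034 to 2119 CPM) and fibroblast markers (1095 to 1168 against 305 to 329 CPM). Lymphocyte markers also summed higher in I-KO (9.74 to 10.6 against 1.93 to 3.07 CPM), while the smooth muscle and the mural and pericyte sums were lower. The part of any of these cells in the rise of Abcg3 was not tested.

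Abcg2, the breast cancer resistance protein that exports urate and drugs, was the most abundant of the subfamily. It stood at 22.1, 21.0 and 20.5 CPM in I-KO replicates 1, 2 and 3, and at 13.4, 14.4 and 12.3 CPM in I-WT replicates 1, 2 and 3. The groups did not overlap (log2 fold change 0.66, SE 0.110, edgeR adjusted p = 5.74e-07). Abcg2 is also made by capillary endothelial cells, whose markers summed to 7070 to 7241 CPM in I-KO and 2034 to 2119 CPM in I-WT. The part of these cells in the rise of Abcg2 was not tested. Abcg4, a sterol exporter known from brain, went the other way. It had 2, 5 and 8 counts in I-KO replicates 1, 2 and 3, and 21, 30 and 19 counts in I-WT replicates 1, 2 and 3. Even the highest I-KO library, at 0.795 CPM, was below the lowest I-WT library, at 2.44 CPM. The fitted log2 fold change was -2.32 (SE 0.372, edgeR adjusted p = 2.49e-07), and the difference on the log2(FPKM + 1) scale was -0.62. The ratio of summed counts, I-WT over I-KO and scaled to library size, was 5.09 with an exact 95% interval of 2.89 to 9.58 for counting error.

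Across subfamilies, 7 of the 9 plasma membrane efflux pumps on a list of exporters of drugs, conjugates and nucleotides were tested. Abcb1b, Abcc3, Abcc4 and Abcg2 rose, Abcc1 and Abcc5 fell, and Abcc10 did not pass (median log2 fold change 0.66). Of all tested genes, 26.4% rose and 26.2% fell. The summed level of the list was 403 to 433 CPM in I-KO against 467 to 493 CPM in I-WT libraries. Per length the sum was 78.3 ± 2.65 FPKM in I-KO and 74.5 ± 2.86 FPKM in I-WT, with overlapping libraries, so the direction of the sum depends on the scale. Among regulators that are known to act on such pumps, Nfe2l2, the NRF2 factor of the oxidant response, rose to 233 ± 8.37 CPM in I-KO, against 150 ± 10.2 CPM in I-WT (log2 fold change 0.63, SE 0.0430). The aryl hydrocarbon receptor gene Ahr fell to 59.5 ± 4.12 CPM in I-KO, against 170 ± 3.11 CPM in I-WT (log2 fold change -1.51, SE 0.0509). The xenobiotic receptors Nr1i2 and Nr1i3 were too low to test, with 2 and 4 counts over I-KO and 0 and 8 over I-WT.

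All 3 examined ABC proteins whose symbols lie outside the naming pattern rose, where 26.4% of all tested genes rose. Cftr, the chloride channel of the C subfamily, stood at 2.55, 2.42 and 3.68 CPM in I-KO replicates 1, 2 and 3, and at 0.582, 0.386 and 0.439 CPM in I-WT replicates 1, 2 and 3. Its groups did not overlap (log2 fold change 2.60, SE 0.391, edgeR adjusted p = 5.29e-08), on 75 counts over I-KO and 11 over I-WT, and its difference on the log2(FPKM + 1) scale was 0.45. Cftr passed the filter on low counts only through the I-KO libraries. The B subfamily peptide transporters of antigen presentation rose less, Tap1 by 0.61 and Tap2 by 0.45. Tap1 averaged 29.8 ± 3.93 CPM in I-KO and 19.2 ± 2.75 CPM in I-WT, and Tap2 31.0 ± 3.79 CPM in I-KO and 22.8 ± 1.63 CPM in I-WT.

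**Figure D5:**
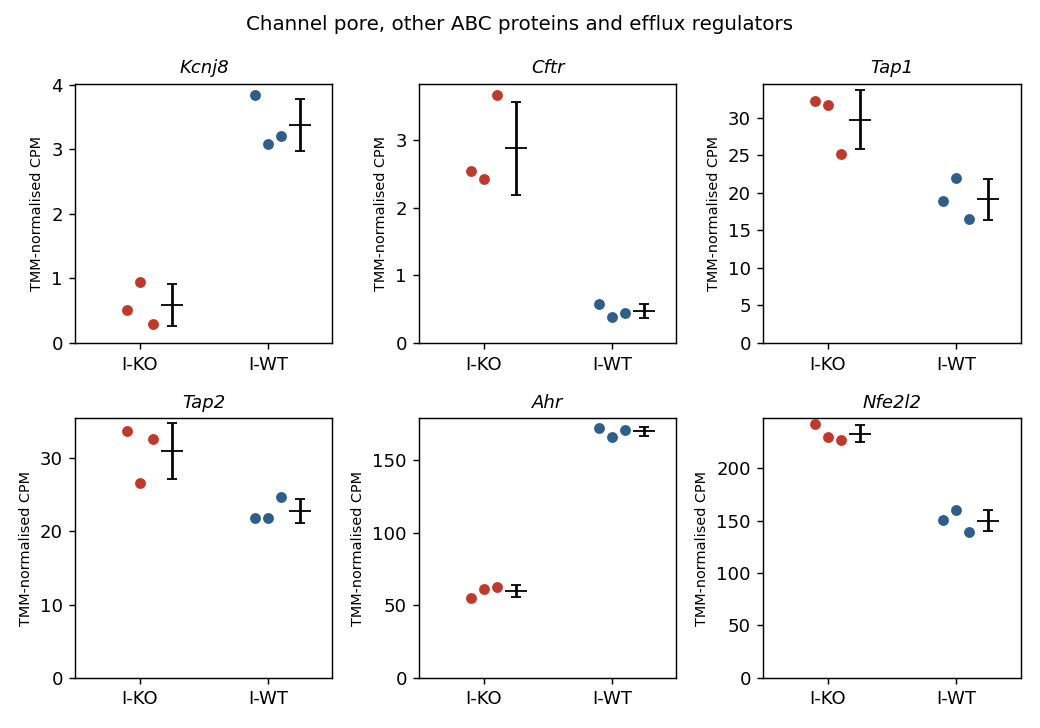
TMM-normalised CPM of Kcnj8, Cftr, Tap1, Tap2, Ahr and Nfe2l2, each I-KO and I-WT library as a point with the mean and SD in black, on axes that start at 0. Kcnj8 and Ahr are lower in every I-KO library than in any I-WT library, and the other genes are higher.

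No count was found in any library for 8 genes of the family. These were the retinal transporter Abca4, the skin lipid transporter Abca12, Abca15, Abca16, Abcb5, the bile salt pump Abcb11, and the pair Abcg5 and Abcg8, which jointly export sterols from liver and gut. A count of 0 allows a level of up to 0.298 to 0.439 CPM per library (3 counts), for counting error only. Abca17 and Abcb4 had 1 count each.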

How the data were processed

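Reads were aligned with HISAT2 2.0 to mm9, per the submitters' processing notes; which counter and annotation were used, and whether strand was, is not given in the sources used here. Deposited counts are raw whole numbers per gene symbol and library. The deposited FPKM values equal count over library total and gene length, with a relative spread of at most 1.05e-05. Here edgeR 4.0.16 (R 4.3.3, limma 3.58.1) was run on the counts of 13323 genes that passed filterByExpr, with TMM factors (1.04 to 1.05 in I-KO, 0.948 to 0.961 in I-WT), robust quasi-likelihood tests, two-sided, and Benjamini-Hochberg adjustment over all genes. The SE is the log2 fold change over the root of F. Alternatives were DESeq2 1.42.0, limma-voom, other scalings and filters, limma on log2 FPKM, each library left out, and a replicate block. Library pairs within a group differed by more than sampling noise (chi-square per degree of freedom 1.38 to 1.84), so none was merged. The scripts were tested on simulated data. Members and lists were chosen with earlier results of these data known. Named with every library were members called at 2-fold or more and the most abundant of each subfamily; other tested members have means or summed counts, except for 2 that are counted in the totals but not reported here. Promoter sequences are RefSeq's for GRCm38.p6, with 28 of 39 members matched; the neighbours come from its gene table.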

Additional observations from a re-analysis of the deposited data

How the results depend on the processing

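Over 16 alternatives, 13 of the 16 called members kept direction and call under each, and the other 3, Abca2 among them, kept direction but lost the call under at least 1. Of the 11 that did not pass, 5 passed under at least 1. Members higher were 8 to 15 and lower 5 or 6. Scaling was the choice that moved most: of all genes 5305 were higher with library totals alone, and 2256, 2138 and 2271 lower with FPKM (pseudocount 0.1, 1 without filter, and 1), against 3512 and 3492. Higher subfamily A members were 1 in place of 2 by DESeq2's test, without the count filter and by FPKM without filter (1 to 2 with a library left out). Higher subfamily B members were 1 in place of 2 by DESeq2's test. Abcb10 and Abcf3 passed upward with library totals alone and the 3 FPKM fits, so subfamilies B and F each gained a higher member there. In subfamily D, 1 member was higher with library totals alone, limma-voom and the 3 FPKM fits (0 to 1 with a library left out), and 1 in place of 2 was lower by DESeq2's test, library totals alone and the FPKM fits (1 to 2 with a library left out). Abce1 passed with DESeq2 size factors, library totals alone and the FPKM fits, so subfamily E had 1 higher (0 to 1 with a library left out). The median of the members, 0.10, was 0.30 by DESeq2 and 0.26 without the filter, both over all 39 members, 0.27, 0.19 and 0.023 by FPKM (pseudocount 0.1, 1, and 1 without filter), 0.23 with library totals alone, and 0.094 to 0.22 with a library left out. The cause was not tested. Signs turned for Abcc10 without I-WT replicate 1 (0.067; lowest -0.35, without I-KO replicate 1); for Pex3 without I-KO replicates 2 and 3 (-0.046, -0.0047) and I-WT replicates 1 and 3 (-0.085, -0.013; highest 0.11); for Pelo without replicate 2 of I-KO (-0.034) or I-WT (-0.056; highest 0.099); for Gcn1l1 with library totals alone (0.12), FPKM (0.11, 0.084 and 0.084) and without I-KO replicate 2 (0.035) or I-WT replicate 3 (0.0088; lowest -0.044); and for Eif2ak4 with library totals alone (0.11) and FPKM (0.10, 0.095 and 0.095). With the replicate number as a block 10 members were higher and 6 lower, as without it, and no member's call changed. Same-numbered libraries did not deviate together (r 0.00398 to 0.0232), and not every library correlated best with its own number. Low counts limit Abcc9, Abcg3 and Abcg4, whose sizes rest on 10, 7 and 15 counts in the lower group.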
